A study of Mus musculus with 8 samples.

Results

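Embryoid bodies given doxycycline (Dox) and taken at day 4 of differentiation (DoxOn_day4) were set against untreated embryoid bodies taken at day 2 (DoxOFF_day2), to find which transcripts of the treated day-4 state were new and which were kept from the untreated day-2 state. The comparison used 4 of the 8 arrays of the series, chosen by their titles, with 2 arrays in each group. All samples came from iTbx6 T-GFP mouse embryonic stem cells, a line in which Dox is given to induce Tbx6. The name T-GFP refers to a GFP reporter of the T gene, and no label says whether the line is 1 clone. All groups were grown as embryoid bodies in serum-free medium with no growth factor added, and the bodies were dissociated and reaggregated after day 2. DoxOn_day4 bodies therefore had this step behind them and DoxOFF_day2 bodies did not. Time, reaggregation and Dox changed together between the groups, so their parts cannot be told apart in this comparison, and the other groups, DoxOn_day2 and DoxOFF_day4, are given beside single genes for that reason. A transgene-free control with Dox is not among the samples, so Dox and Tbx6 induction cannot be told apart either. The labels do not say when Dox was added or whether replicates were cultured separately. All p-values therefore reflect sample-to-sample spread that may be technical.

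Tbx6 and T (Brachyury) are related T-box genes, active where mesoderm first forms and, for Tbx6, later in the tissue that makes somites. In the mouse embryo the pluripotent epiblast forms mesoderm at the primitive streak under Nodal, Wnt and BMP signals, and cells that pass through the streak switch on T, Eomes, Mixl1 and Mesp1 in overlapping order. Mesp1 marks the earliest mesoderm, including the precursors of the heart. Embryoid bodies are aggregates of differentiating stem cells in which parts of this sequence can be followed in culture.

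Each array measured 23473 gene probes with a single dye, and 21670 of them, which represent 15414 named genes and 6040 unnamed probes, were above background on at least 2 arrays and were tested. A value is a log2 intensity after subtraction of the mean of the blank spots and quantile normalization, and the lowest value possible, the floor, is 1.04. Differences are log2 differences, DoxOn_day4 minus DoxOFF_day2, with the standard error of a limma fit over all 8 arrays. A probe was called when its Benjamini-Hochberg adjusted p was under 0.05. Between 86% and 89.2% of the gene probes on each array lay above background. Replicate arrays correlated at 0.994 in DoxOn_day4 and 0.993 in DoxOFF_day2. As a description of 21670 probes on shared arrays, DoxOn_day4 arrays correlated at 0.975 to 0.977 with DoxOFF_day2, at 0.976 to 0.977 with DoxOn_day2 and at 0.954 to 0.956 with DoxOFF_day4. In bulk RNA, a change in the share of cells that express a gene and a change in RNA per cell cannot be told apart, and this holds for every result here.

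Primitive streak genes, BMP pathway genes and actin cytoskeleton genes were the main gains of DoxOn_day4, and many visceral endoderm and hypoxia target genes were lower, while most epithelial, cell cycle and respiratory genes were kept. Of the probes tested, 1888 were called higher in DoxOn_day4 (8.71%) and 2008 were called lower (9.27%), together 18% of all. A smaller set changed by at least 2-fold, with 581 probes higher (2.68%) and 704 lower (3.25%). The counts of called probes depended on each single array: without DoxOFF_day2 replicate 1 they were 1128 higher and 1220 lower, without DoxOFF_day2 replicate 2 the lower count was 1300, without DoxOn_day4 replicate 1 they were 1113 and 1302, and without DoxOn_day4 replicate 2 the higher count was 1160. The counts of changes of at least 2-fold moved less, to between 560 and 632 higher and between 676 and 696 lower. The values of the groups did not overlap for 55.5% of probes, so a lack of overlap alone says little with 2 arrays a group.

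Presence was sorted by the same fit. A probe counted as new when it was above background on both DoxOn_day4 arrays and on neither DoxOFF_day2 array, was called higher and stood at least 2-fold over the background bound, and as lost in the reverse case. There were 24 new probes (0.111%) and 35 lost probes (0.162%). These counts depend on the background bound: there were 1 new and 0 lost without background subtraction, 27 and 58 at a bound of 3 SD over the blank mean, and 44 and 70 with the negative control spots. A probe counted as kept when it was above background on all 4 arrays and the 95% interval of its difference lay within 2-fold either way, as held for 16072 probes (74.2%). Of these, 1560 were also called, with a small difference. The remaining 3262 probes that were neither called nor kept are undecided, since a missed threshold does not show that a level was kept. Just inside the margin lay Fam161a, Grik2 and Tspan18 with differences of -0.64, -0.48 and 0.63, and just outside it lay Bphl, Shroom2 and Foxp1, at -0.75, 0.78 and -0.66. The count of new probes was 42 without DoxOFF_day2 replicate 1 and 47 without replicate 2, since presence in DoxOFF_day2 then rested on 1 array.

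**Figure D1:**
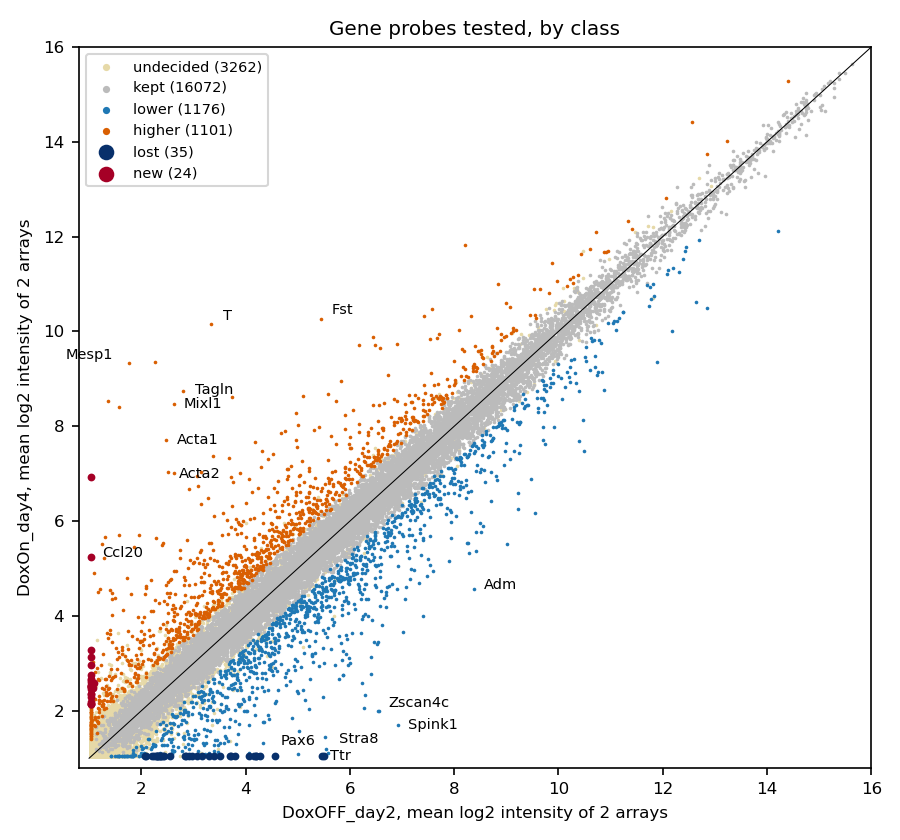
Mean log2 intensity of each tested gene probe in DoxOn_day4 (vertical axis) and in DoxOFF_day2 (horizontal axis), over 2 arrays each, coloured by class; the number of probes in each class is in the legend, and called probes within the kept margin are shown as kept. The 24 new probes lie at the left edge and the 35 lost probes at the lower edge, and Mesp1, T and Fst lie far above the line of equal levels.

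Mesp1 and T, genes of the primitive streak, had the steepest rises among named genes. T was at 10.17 and 10.15 in DoxOn_day4, against 3.40 and 3.27 in DoxOFF_day2, a difference of 6.82 ± 0.11 (113-fold, limma adjusted p = 3.46e-06). Mesp1 was at 9.40 and 9.27 in DoxOn_day4 and at 1.88 and 1.64 in DoxOFF_day2, a difference of 7.58 ± 0.14 (191-fold, limma adjusted p = 4.42e-06), the largest of any probe. Mixl1, a homeobox gene of the streak, read 8.46 and 8.50 in DoxOn_day4, against 2.67 and 2.57 in DoxOFF_day2, and differed by 5.86 ± 0.20 (limma adjusted p = 2.11e-05). All 3 genes were low on both untreated day-2 arrays and high on both treated day-4 arrays, with no overlap. Eomes, a T-box factor of mesendoderm, was at 7.80 and 7.91 in DoxOn_day4 and at 4.78 and 4.59 in DoxOFF_day2 (3.17 ± 0.11). Lhx1, a LIM homeobox gene of anterior mesendoderm, was at 7.89 and 7.92 in DoxOn_day4, against 4.73 and 4.79 in DoxOFF_day2 (3.15 ± 0.09, limma adjusted p = 2.11e-05 for both). These genes were thus already above background at day 2 without Dox, and none of the 5 is counted as new. Of 14 tested streak factors, 12 were called higher and none lower, with a median difference of 1.40, beside a median of 0.00045 over all probes. With any 1 array left out, 9 to 12 were called higher.

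Tbx6 itself moved little on this array. Its probe read 6.10 and 6.23 in DoxOn_day4, against 5.59 and 5.49 in DoxOFF_day2, a difference of 0.62 ± 0.12 (1.54-fold, limma adjusted p = 0.0146). Its mean was 5.34 in DoxOn_day2 and 5.54 in DoxOFF_day4. The DoxOn_day4 arrays were the higher ones, and the interval stayed within 2-fold. The call of Tbx6 ended without DoxOFF_day2 replicate 1 (adjusted p = 0.0517), DoxOFF_day2 replicate 2 (0.0751) or DoxOn_day4 replicate 2 (0.0794). It held without DoxOn_day4 replicate 1 (0.0484), either DoxOn_day2 array (0.0168) or either DoxOFF_day4 array (0.0303). Without replicate 1 of DoxOFF_day2 or of DoxOn_day4 the interval passed the 2-fold margin. Where the probe lies on the transcript is not given in the files, so it was not tested whether it reads the transgene. Mesp2 and Cdx1, a somite factor and a caudal homeobox factor of the streak, were kept, with differences of 0.13 ± 0.13 and 0.31 ± 0.14.

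The other large rises were led by genes of the contractile actin cytoskeleton. Tagln, which encodes the actin-binding protein transgelin of smooth muscle, was at 8.79 and 8.68 in DoxOn_day4 and at 2.67 and 2.93 in DoxOFF_day2 (5.94 ± 0.26, limma adjusted p = 3.74e-05). Acta1, skeletal muscle actin, was at 7.72 and 7.70 in DoxOn_day4, against 2.68 and 2.28 in DoxOFF_day2 (5.22 ± 0.17). Acta2, smooth muscle actin, read 7.05 on both DoxOn_day4 arrays, against 2.74 and 2.30 in DoxOFF_day2 (4.53 ± 0.16). Calponins, which bind actin, rose less: Cnn2 by 2.31 ± 0.13 and Cnn1 by 1.91 ± 0.19. Of 12 tested smooth muscle and actin genes, 7 were called higher and 1 lower, with a median of 0.62. None was lower without DoxOFF_day2 replicate 1, DoxOn_day4 replicate 1 or DoxOn_day4 replicate 2. Myh11, the myosin heavy chain that defines smooth muscle, was kept at a low level, at 3.22 and 3.24 in DoxOn_day4, against 3.47 and 3.05 in DoxOFF_day2. With 1 array left out, 5 to 7 genes of the group were called higher.

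Among the remaining genes of the 12 largest rises, Fst encodes follistatin, a secreted binder of activin. It read 10.30 and 10.25 in DoxOn_day4 and 5.43 and 5.47 in DoxOFF_day2 (4.82 ± 0.17, limma adjusted p = 2.11e-05). Rtl8c, a retrotransposon-derived gene on the X chromosome, was at 8.64 and 8.59 in DoxOn_day4, against 3.51 and 3.95 in DoxOFF_day2 (4.88 ± 0.17). Ppp4r4, a regulatory subunit of protein phosphatase 4, rose by 4.39 ± 0.12. Each of these was at least moderately bright on both DoxOn_day4 arrays and well below that on both DoxOFF_day2 arrays. Trim67, a tripartite motif gene, and Frzb, a secreted Wnt antagonist, rose by 4.37 ± 0.19 and 4.27 ± 0.29 and were above background on only 1 of the 2 DoxOFF_day2 arrays, so the size of these rises depends on the floor. Frzb was at 6.45 in DoxOFF_day4, above its 5.47 and 5.57 in DoxOn_day4.

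**Figure D2:**
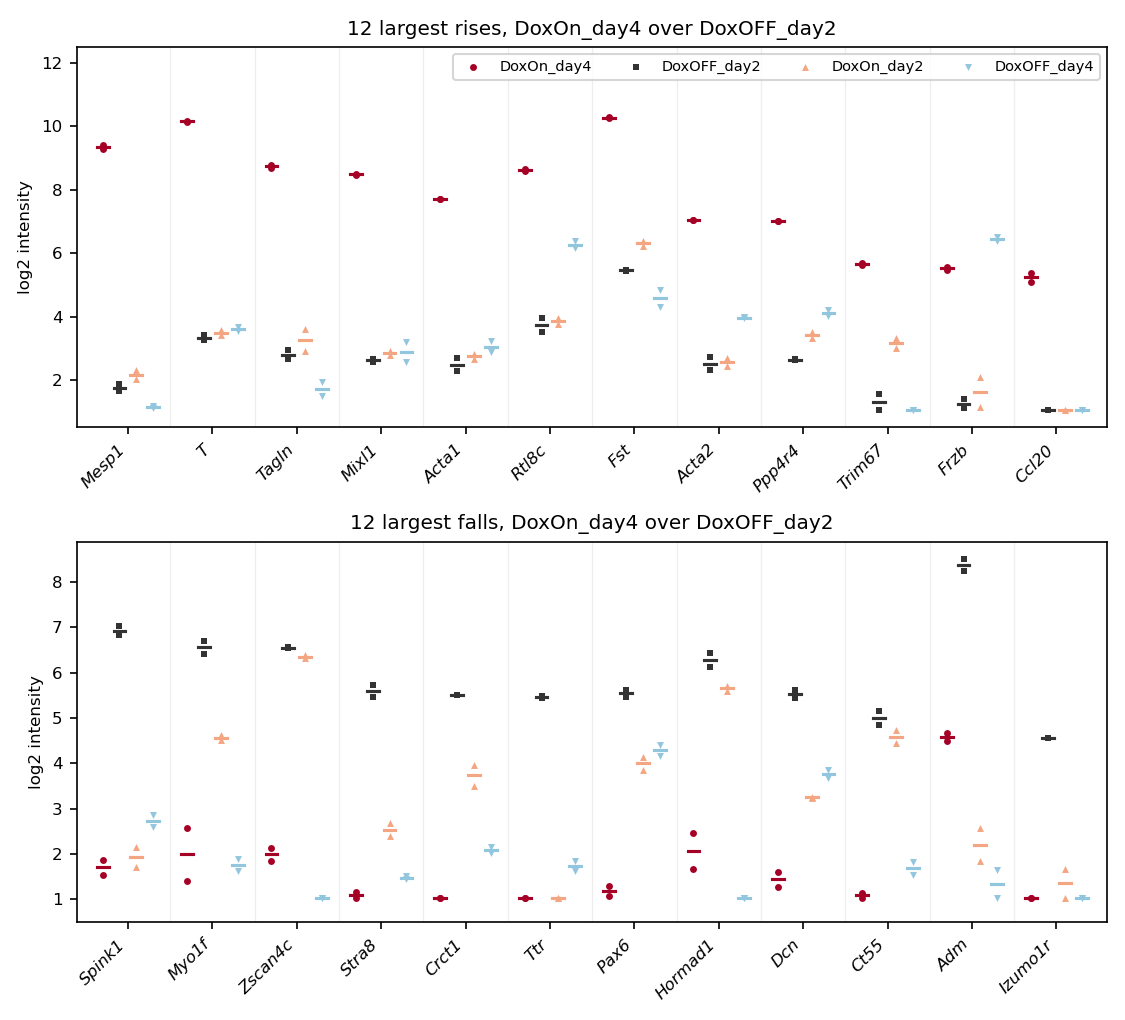
Log2 intensity on each array (points) and group mean (bars) of the 12 genes with the largest rises and the 12 with the largest falls; the order within each gene is DoxOn_day4, DoxOFF_day2, DoxOn_day2, DoxOFF_day4. T, Mesp1 and Mixl1 were high only on the DoxOn_day4 arrays among these 8 arrays, whereas Frzb was also high in DoxOFF_day4 and Zscan4c was also high in DoxOn_day2.

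The start regions of a few of these genes are shown because the factors that bind the motifs marked in them are T-box proteins (TCACACCT, or AGGTGTGA on the other strand), serum response factor (the CArG box) and basic helix-loop-helix leucine zipper proteins (CACGTG, its own reverse complement). Windows run, 5′ to 3′ on the gene's strand, from 250 bases before to 50 bases after the start, from RefSeq on GRCm38.p6, with the match in capitals. Mesp1 lies at chr7:79793541-79793840 on the minus strand, Ccl20 at chr1:83116516-83116815 on the plus strand, Acta1 at chr8:123894726-123895025 on the minus strand and Hormad1, a falling gene described further on, at chr3:95559427-95559726 on the plus strand.
Mesp1: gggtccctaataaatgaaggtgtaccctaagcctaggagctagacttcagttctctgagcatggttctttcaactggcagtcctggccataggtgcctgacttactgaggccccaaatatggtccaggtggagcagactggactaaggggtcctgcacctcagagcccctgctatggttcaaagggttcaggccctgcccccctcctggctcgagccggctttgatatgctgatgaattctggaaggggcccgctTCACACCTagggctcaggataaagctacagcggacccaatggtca
Ccl20: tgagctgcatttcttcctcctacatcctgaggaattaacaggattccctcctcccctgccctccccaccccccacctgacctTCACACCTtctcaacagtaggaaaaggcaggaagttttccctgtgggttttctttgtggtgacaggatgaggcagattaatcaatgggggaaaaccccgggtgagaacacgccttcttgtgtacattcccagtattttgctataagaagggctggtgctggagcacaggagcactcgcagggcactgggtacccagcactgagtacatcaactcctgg
Acta1: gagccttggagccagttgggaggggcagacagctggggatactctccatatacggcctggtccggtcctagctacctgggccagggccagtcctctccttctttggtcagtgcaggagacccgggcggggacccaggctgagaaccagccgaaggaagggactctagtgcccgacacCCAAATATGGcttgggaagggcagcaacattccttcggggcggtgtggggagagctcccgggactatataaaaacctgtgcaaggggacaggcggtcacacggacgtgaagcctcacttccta
Hormad1: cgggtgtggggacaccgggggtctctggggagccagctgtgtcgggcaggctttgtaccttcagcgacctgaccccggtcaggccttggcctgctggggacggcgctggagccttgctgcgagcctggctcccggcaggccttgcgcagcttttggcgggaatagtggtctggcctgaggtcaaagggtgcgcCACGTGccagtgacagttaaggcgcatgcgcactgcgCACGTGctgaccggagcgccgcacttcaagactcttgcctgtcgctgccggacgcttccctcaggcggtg
The T-box octamer begins 5 bases downstream of the Mesp1 start and 168 bases upstream of the Ccl20 start. The CArG box begins 73 bases upstream of the Acta1 start, and the window of Mesp1 holds another, left in lower case. Hormad1 has CACGTG at 57 and at 20 bases upstream of its start, in the first of 2 windows listed for it. Of the 12 largest rises, 9 have a window, and 2 of these hold the T-box octamer and 2 a CArG box, on either strand. Of the 12 largest falls, 8 have a window, and 2 hold CACGTG. Among all 32851 windows, 1.28% hold the octamer, 1.63% a CArG box and 7.15% CACGTG, and the motifs do not overlap each other. A match describes the letters only.

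New transcripts were few and mostly dim. Ccl20, a chemokine that attracts cells through the receptor CCR6, was the brightest of the named ones, at 5.38 and 5.09 in DoxOn_day4 and at the floor on both DoxOFF_day2 arrays, at least 17.4-fold higher (limma adjusted p = 2.11e-05). It was at the floor in DoxOn_day2 and DoxOFF_day4 too. Tgfbr2, the type II receptor of TGF-beta, was at 3.29 and 3.27 in DoxOn_day4 and at the floor in DoxOFF_day2, at least 4.48-fold higher (limma adjusted p = 0.000346). It was present in DoxOn_day2, with a mean of 2.62, so its presence was not limited to DoxOn_day4. Cxcl1, a chemokine that attracts neutrophils, was at 3.20 and 3.07 in DoxOn_day4 and at the floor in DoxOFF_day2, at least 4.04-fold higher. Cep112, a centrosomal gene, was at least 3.58-fold higher in DoxOn_day4 and had a mean of 3.27 in DoxOFF_day4. Heph, a membrane ferroxidase, and Antxr2, a receptor of anthrax toxin, were at least 2.81-fold and 2.70-fold higher, and both were brighter still in DoxOFF_day4, at 4.90 and 3.62. Asah2, a neutral ceramidase, and Tac1, the precursor of substance P, had bounds of 2.78-fold and 2.66-fold. With 1 of the 4 arrays compared left out, the adjusted p was 0.0618 to 0.0819 for Asah2 and 0.126 to 0.155 for Tac1, and Tac1 also missed the threshold without either DoxOn_day2 array (0.0737). Among the 24 new probes, 17 carry a gene name and 7 do not. The bounds rest on the blank spots, and without background subtraction the calls of Heph, Antxr2, Asah2 and Tac1 ended (adjusted p = 0.0555, 0.0892, 0.0513 and 0.0776).

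Genes of the BMP pathway rose together. BMPs are secreted ligands that act through receptors and SMAD1 and SMAD5, and ID and MSX genes are their usual targets. Among ligands, Bmp4 was at 7.19 and 7.15 in DoxOn_day4 and at 4.83 and 4.93 in DoxOFF_day2 (2.29 ± 0.10, limma adjusted p = 3.74e-05). Among targets, Id1 was at 9.91 and 9.52 in DoxOn_day4, against 6.10 and 6.27 in DoxOFF_day2 (3.53 ± 0.16). Id3 was at 9.78 and 9.67 in DoxOn_day4, against 6.44 and 6.52 in DoxOFF_day2 (3.25 ± 0.10). Both ID genes, which encode inhibitors of basic helix-loop-helix factors, were high on both DoxOn_day4 arrays without overlap. The homeobox genes Msx2 and Msx1 rose by 3.10 ± 0.20 and 2.38 ± 0.15. The antagonist Chrd was kept (-0.03 ± 0.10), as was the receptor Bmpr1a (0.36 ± 0.09). Of 19 tested BMP pathway genes, 15 were called higher and none lower, with a median difference of 0.89. The count was 10 to 13 when 1 array was left out. The ligand Bmp4 and the targets Id1 and Id3 had means of 9.97, 9.97 and 10.10 in DoxOn_day2, each above the DoxOn_day4 values. For Id1 the difference between DoxOn_day4 and DoxOn_day2 was not called.

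Nodal and Wnt genes moved in part. Nodal, the ligand that patterns the epiblast and streak, read 9.59 and 9.68 in DoxOn_day4, against 8.30 and 8.003 in DoxOFF_day2 (1.49 ± 0.13, limma adjusted p = 0.000613). Its antagonist Lefty1 fell by 1.05 ± 0.14, to 8.49 and 8.72 in DoxOn_day4, against 9.69 and 9.63 in DoxOFF_day2. Gdf3, a related ligand of pluripotent cells, fell by 2.74 ± 0.14. The cofactor Foxh1 and the receptor Acvr2b were kept, at 0.23 ± 0.15 and 0.35 ± 0.13. Of 13 tested Nodal pathway genes, 3 were called higher, 2 lower, 6 were kept and 2 were undecided. Among Wnt ligands, Wnt8a was at 6.46 and 6.76 in DoxOn_day4 and at 4.28 and 3.96 in DoxOFF_day2 (2.49 ± 0.15, limma adjusted p = 0.000108). Wnt3, which the streak needs to form, was at 6.14 and 6.01 in DoxOn_day4, against 4.29 and 4.02 in DoxOFF_day2 (1.92 ± 0.14). Wnt5b rose by 1.42 ± 0.12, and Rspo3, which strengthens Wnt signals, by 2.30 ± 0.14. The transducer Ctnnb1 (beta-catenin) and the receptor Fzd7 were kept. Of 19 tested Wnt pathway genes, 6 were called higher, none lower and 11 were kept, and 1 was lower without DoxOFF_day2 replicate 2 or DoxOn_day4 replicate 2.

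FGF, Notch and retinoic acid genes moved in both directions. Fgf4, the ligand of pluripotent cells, fell by 3.34 ± 0.15, to 3.57 and 3.76 in DoxOn_day4, against 6.97 and 7.05 in DoxOFF_day2 (limma adjusted p = 4.43e-05). Fgf5, the ligand of the later epiblast, was at 7.94 and 7.76 in DoxOn_day4, against 6.48 and 6.59 in DoxOFF_day2 (1.32 ± 0.11). The receptor Fgfr2 fell by 1.78 ± 0.18, while the receptor Fgfr1 and the target genes Etv4, Etv5 and Dusp4 were kept. Of 20 FGF pathway genes, 6 were called higher, 5 lower and 10 kept. For Notch, the ligand Dll3 rose by 1.24 ± 0.11 and the ligand Dll1 fell by 1.23 ± 0.13, and Hes1, a target, rose by 1.14 ± 0.16. Cyp26a1, which degrades retinoic acid, was at 8.07 and 8.001 in DoxOn_day4, against 4.93 and 5.10 in DoxOFF_day2 (3.02 ± 0.21, limma adjusted p = 0.000191). The retinoid-binding Crabp2 and the receptor Rarg fell by 1.41 ± 0.21 and 0.95 ± 0.14.

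Some receptors and adhesion genes of early mesoderm rose, while no factor of the heart and lateral plate list was called. Of 16 tested mesoderm receptors and surface genes, 6 were called higher, 2 lower and 9 were kept, with a median of 0.29. Without DoxOFF_day2 replicate 2 or DoxOn_day4 replicate 2 the kept count was 5. Cdh11, a cadherin of mesenchyme, was at 5.83 and 5.56 in DoxOn_day4 and at 1.16 and 1.99 in DoxOFF_day2, where 1 of 2 arrays was above background (4.12 ± 0.28, limma adjusted p = 0.000193). Aplnr, the apelin receptor of early mesoderm, was at 6.98 and 7.06 in DoxOn_day4, against 4.005 and 3.79 in DoxOFF_day2 (3.12 ± 0.11). Pdgfra, a receptor of paraxial and cardiac mesoderm, was at 6.06 and 5.99 in DoxOn_day4, against 3.67 and 3.63 in DoxOFF_day2 (2.38 ± 0.12). In each of these genes both DoxOn_day4 values lay above both DoxOFF_day2 values. The lower ones were Tek, an angiopoietin receptor (-1.42 ± 0.21), and the Notch ligand Dll1. Of 15 tested cardiac and lateral plate factors, none was called in either direction, 10 were kept and 5 were undecided, with a median of 0.09. The kept share was 66.7%, beside 74.2% of all probes, and 18% of all probes were called. With 5 of 15 undecided, the list does not show that these factors as a group were unchanged. At an unadjusted p under 0.05, 6573 probes of the array passed. The kept ones included Gata6, at 5.67 and 5.64 in DoxOn_day4 and at 5.50 and 5.46 in DoxOFF_day2, and Tbx2, at 4.70 and 4.60 in DoxOn_day4 and at 4.85 and 4.64 in DoxOFF_day2. Gata4 and Tbx5, both factors of the heart, were kept at low levels, with means of 2.41 and 2.85 in DoxOn_day4 and 2.51 and 2.83 in DoxOFF_day2. Of the presomitic genes, Meox1 and Hes7 were kept, and 4 of 14 were called higher, Cyp26a1, Rspo3 and Dll3 among them.

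Sarcomere, endothelial and blood genes moved in both directions. Tpm1, a tropomyosin also found outside muscle, was at 11.05 and 10.97 in DoxOn_day4, against 8.82 and 8.85 in DoxOFF_day2 (2.18 ± 0.10, limma adjusted p = 4.04e-05). Myl7, the atrial myosin light chain, fell by 1.51 ± 0.09, to 5.95 and 5.88 in DoxOn_day4, against 7.45 and 7.39 in DoxOFF_day2. Of 17 tested sarcomere genes, 3 were called higher, 2 lower and 7 were kept. Without DoxOFF_day2 replicate 2 or DoxOn_day4 replicate 2 the lower count was 1 and the kept count 4. Pecam1, an adhesion receptor of endothelium that embryonic stem cells also carry, fell by 2.50 ± 0.13, to 2.85 and 3.16 in DoxOn_day4, against 5.58 and 5.43 in DoxOFF_day2. Lmo2, a factor of blood and vessel precursors, rose by 1.30 ± 0.10, and Gata2, another blood factor, by 0.77 ± 0.10, a call that ended without background subtraction (adjusted p = 0.152). Cdh5, which defines endothelium, was near the floor in both groups, at 1.57 and 1.23 in DoxOn_day4 and at 1.57 and 1.52 in DoxOFF_day2.

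**Figure D3:**
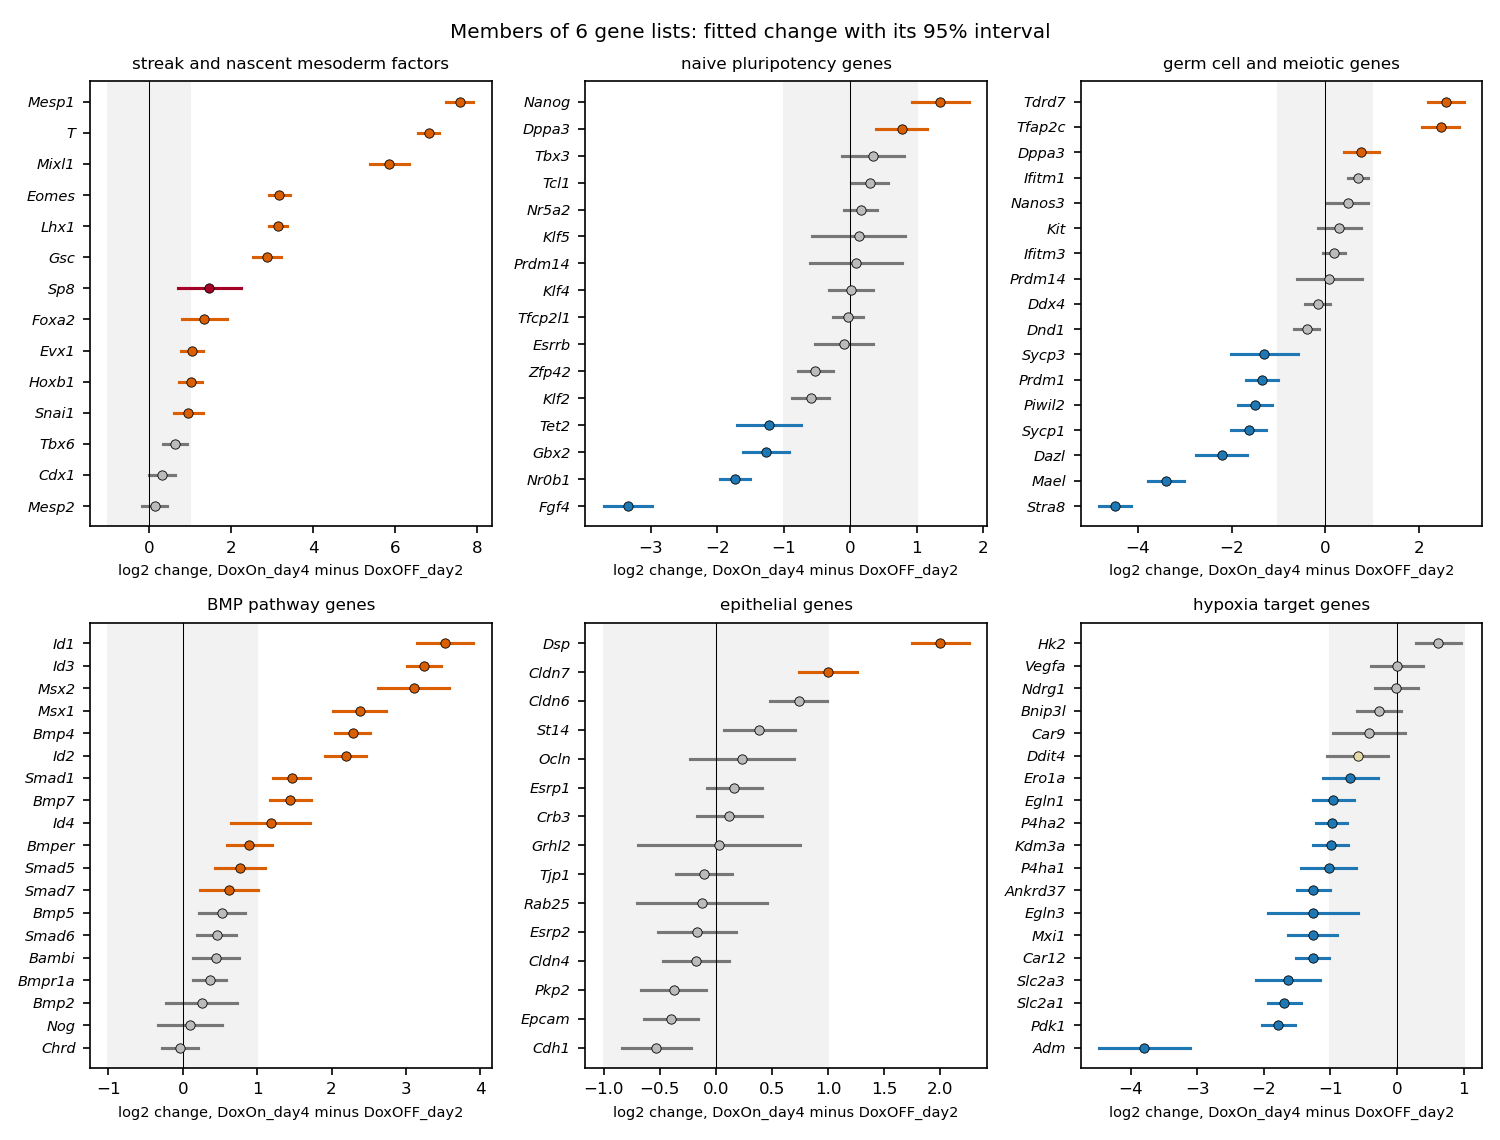
Fitted log2 difference, DoxOn_day4 minus DoxOFF_day2 (points), with its 95% interval (lines), for every tested member of 6 gene lists; orange marks higher, blue lower, red new, grey kept and yellow undecided members, and the shaded band is the 2-fold margin of the kept class. Streak and BMP genes extend to the right, hypoxia targets extend to the left, and most naive pluripotency and epithelial genes lie in the band.

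Among the falls, visceral endoderm genes held the largest one and 3 lost genes. Visceral endoderm is the extraembryonic layer that surrounds the epiblast and carries lipid and vitamin transport proteins. Ttr, which encodes transthyretin, was at the floor on both DoxOn_day4 arrays, against 5.44 and 5.48 in DoxOFF_day2, at least 21.4-fold lower (limma adjusted p = 1.47e-05). Apoa1, an apolipoprotein, was at the floor in DoxOn_day4, against 3.71 and 4.69 in DoxOFF_day2, at least 8.91-fold lower. Dab2, an adaptor of endocytosis, was at the floor in DoxOn_day4, against 3.73 and 3.89 in DoxOFF_day2, at least 6.79-fold lower. These genes were present on both untreated day-2 arrays and on neither treated day-4 array. Spink1, a secreted trypsin inhibitor, read 1.86 and 1.55 in DoxOn_day4 and 7.03 and 6.82 in DoxOFF_day2, the largest fall of any named gene (-5.22 ± 0.20, limma adjusted p = 2.33e-05). Of 16 tested visceral endoderm genes, 10 were called lower and 1 higher, Cyp26a1, and 3 were lost, beside a median over the list of -0.73. Without DoxOFF_day2 replicate 2 the lower count was 6. Gata6 and Apob were kept.

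Germ cell and meiotic genes moved in both directions, with falls in several meiotic genes. Stra8, which meiosis needs to begin, read 1.17 and 1.04 in DoxOn_day4 and 5.45 and 5.73 in DoxOFF_day2 (-4.48 ± 0.14, limma adjusted p = 2.11e-05). It was above background on only 1 of the 2 DoxOn_day4 arrays, so the size of this fall depends on the floor. Hormad1, a protein of the meiotic chromosome axis, was at 2.46 and 1.68 in DoxOn_day4, against 6.13 and 6.43 in DoxOFF_day2 (-4.21 ± 0.25). Mael, which takes part in transposon silencing in germ cells, was at 4.09 and 3.90 in DoxOn_day4, against 7.44 and 7.36 in DoxOFF_day2 (-3.40 ± 0.16). All of these were high on both DoxOFF_day2 arrays and did not overlap. Dazl, an RNA-binding protein of germ cells, fell by 2.21 ± 0.23. Against this direction, Tdrd7 and Tfap2c rose by 2.57 ± 0.16 and 2.46 ± 0.17. Of 17 tested germ cell and meiotic genes, 7 were called lower, 4 higher and 7 kept, among them Ddx4 and Ifitm3, with a median of -0.16. Without DoxOn_day4 replicate 2 the kept count was 4. Hormad1 is not on that list, and neither is Ct55, a cancer and testis antigen gene, which fell by 3.90 ± 0.17. Ct55 was likewise above background on only 1 of the 2 DoxOn_day4 arrays, so its fall depends on the floor too. Zscan4c, a gene of the 2-cell-like state of stem cells, was at 2.14 and 1.85 in DoxOn_day4, against 6.54 and 6.56 in DoxOFF_day2 (-4.55 ± 0.12). Only 4 genes of the 2-cell-like list were tested, and Zscan4c was the single one called.

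Other lost and falling genes belonged to no single group. Crct1 was at the floor in DoxOn_day4, against 5.50 on both DoxOFF_day2 arrays, at least 22-fold lower. Izumo1r, which encodes the egg's receptor for sperm, was at the floor in DoxOn_day4, against 4.56 on both DoxOFF_day2 arrays, at least 11.4-fold lower. Edn2, an endothelin peptide, was at least 8.64-fold lower, although it was still present in DoxOn_day2, with a mean of 3.75. Spink10 and Cox8c were at least 6.40-fold and 6.34-fold lower. Pax6, a factor of the eye and nervous system, was at 1.30 and 1.07 in DoxOn_day4, against 5.47 and 5.62 in DoxOFF_day2 (-4.36 ± 0.16). Myo1f, an unconventional myosin, was at 1.42 and 2.58 in DoxOn_day4, against 6.71 and 6.41 in DoxOFF_day2 (-4.56 ± 0.35), and its DoxOn_day4 arrays were the least alike of these genes. Dcn, a matrix proteoglycan of fibroblasts, fell by 4.09 ± 0.14. It was the 1 gene called among 8 tested fibroblast and feeder genes, of which 2 were lower and 1 higher without DoxOFF_day2 replicate 2. Thy1 and Col1a1, the defining fibroblast genes, were kept, at -0.01 ± 0.16 and -0.09 ± 0.16.

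Pluripotency genes split. Nanog, a core factor, was higher in DoxOn_day4, at 11.01 and 10.77, against 9.44 and 9.63 in DoxOFF_day2 (1.35 ± 0.18, limma adjusted p = 0.00284). Zfp42, which encodes REX1, was kept at 8.96 and 8.91 in DoxOn_day4, against 9.41 and 9.51 in DoxOFF_day2 (-0.53 ± 0.11). Its DoxOn_day4 values both lay below its DoxOFF_day2 values, within the 2-fold margin. Klf4, a reprogramming factor, was kept at 5.88 and 5.64 in DoxOn_day4, against 5.76 and 5.74 in DoxOFF_day2, and Nr5a2, an orphan nuclear receptor, was kept at 5.17 and 5.10 in DoxOn_day4, against 4.88 and 5.08 in DoxOFF_day2. The groups overlapped for Klf4 and were nearly level for Nr5a2. Nr0b1, a nuclear receptor of naive cells, fell by 1.74 ± 0.09, and Gbx2, a homeobox gene, by 1.27 ± 0.14. Of 16 tested naive pluripotency genes, 10 were kept, 2 were called higher and 6 lower, with a median of -0.01. The kept share was 62.5%, beside 74.2% of all probes, and 9.27% of all probes were called lower. Some kept members were also called. The higher count was 1 without DoxOFF_day2 replicate 1 or DoxOn_day4 replicate 1. Without DoxOn_day4 replicate 1 the kept count was 6, and without DoxOn_day4 replicate 2 the lower count was 3. Several general pluripotency genes fell while staying bright. Dppa5a, an RNA-binding protein, was at 12.09 and 12.14 in DoxOn_day4, against 14.28 and 14.13 in DoxOFF_day2 (-2.08 ± 0.10). Utf1, a chromatin factor, was at 10.68 and 10.57 in DoxOn_day4, against 12.64 and 12.62 in DoxOFF_day2 (-2.01 ± 0.10). Dppa2 and Dppa4, partner proteins of pluripotent cells, fell by 2.64 ± 0.10 and 1.42 ± 0.18. Of 13 such genes, 6 were called lower, 1 higher and 6 kept, Lin28a and Trim28 among the kept, and 2 were higher without either DoxOn_day2 array. Pou5f1 and Sox2 were not analysed here.

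Of 9 tested primed epiblast genes, 2 were called higher, 4 lower and 5 kept (55.6%, beside 74.2% of all probes). Some of the kept ones were also called. Dnmt3a fell by 2.69 ± 0.13 and Fgf5 rose by 1.32 ± 0.11. Otx2 was kept at 9.67 and 9.80 in DoxOn_day4, against 9.72 and 9.77 in DoxOFF_day2, and so were Zic2 and Dnmt3b. Otx2 is the homeobox factor of the anterior epiblast, and its values in the groups overlapped. Epithelial genes were the group kept most often among the developmental ones shown, with 86.7% kept, beside 74.2% of all probes. Even so, 3 epithelial genes were called higher and 2 lower. Of these, 1 rose by at least 2-fold, and the largest difference on the list was 2.00. Epcam, an adhesion protein of epithelia, was at 11.12 and 11.07 in DoxOn_day4, against 11.55 and 11.44 in DoxOFF_day2 (-0.40 ± 0.10, limma adjusted p = 0.0382). Esrp1, an epithelial splicing factor, was at 8.47 and 8.60 in DoxOn_day4 and at 8.37 on both DoxOFF_day2 arrays (0.16 ± 0.10). Cdh1, E-cadherin, was at 10.07 and 10.21 in DoxOn_day4, against 10.80 and 10.54 in DoxOFF_day2 (-0.53 ± 0.13). Its interval passed the 2-fold margin without DoxOFF_day2 replicate 2 (-0.66) or DoxOn_day4 replicate 2 (-0.60). Of 15 tested epithelial genes, 13 were kept, and the count was 9 to 13 with 1 array left out. In DoxOFF_day4, the untreated bodies of the same age, the means of Epcam, Esrp1 and Cdh1 were 4.98, 2.49 and 4.69. Among mesenchymal transition genes, Cdh2, N-cadherin, rose by 1.83 ± 0.10 and Snai1, a repressor of E-cadherin, by 0.96 ± 0.15, while Twist1, Twist2 and Mmp2 were kept. Of 15 tested genes of that list, 6 were called higher, and 3 without DoxOn_day4 replicate 1.

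**Figure D4:**
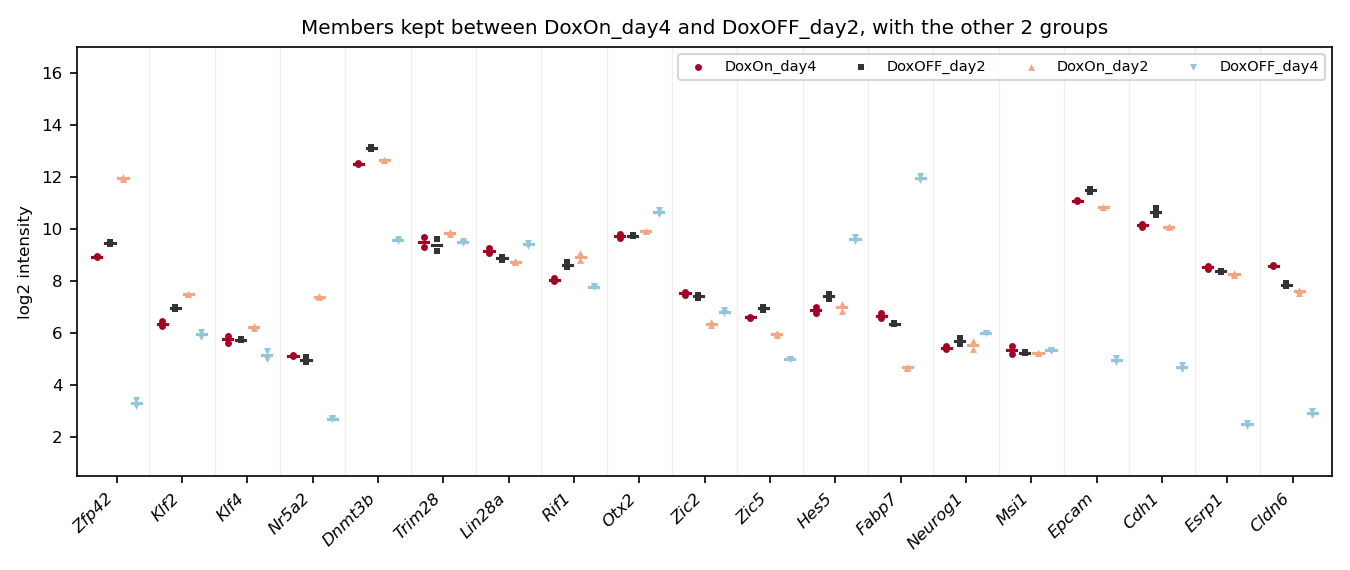
Log2 intensity on each array (points) and group mean (bars) of the named kept members of the naive pluripotency, general pluripotency, primed epiblast, neural and epithelial lists; the order within each gene is DoxOn_day4, DoxOFF_day2, DoxOn_day2, DoxOFF_day4. The DoxOn_day4 and DoxOFF_day2 values of each gene lie close together, while Epcam, Cdh1 and Esrp1 lie far lower and Fabp7 far higher in DoxOFF_day4.

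Neural genes were mixed. Neurod1, a neuronal differentiation factor, fell by 2.74 ± 0.24, to 5.34 and 5.73 in DoxOn_day4, against 8.15 and 8.39 in DoxOFF_day2 (limma adjusted p = 0.000552). Tubb3, a neuronal tubulin, fell by 1.26 ± 0.14. Stmn2 and Nes, a tubulin-binding protein and the intermediate filament nestin, rose by 1.54 ± 0.11 and 1.20 ± 0.11. Fabp7, a fatty acid binding protein of neural progenitors, was kept at 6.57 and 6.78 in DoxOn_day4, against 6.35 and 6.38 in DoxOFF_day2, and had a mean of 11.96 in DoxOFF_day4. Of 21 tested neural genes, 3 were called higher, 5 lower and 11 kept, and the lower count was 3 without any 1 array of DoxOn_day4, DoxOFF_day2 or DoxOFF_day4. Among trophoblast genes, Rhox6, a reproductive homeobox gene, rose by 3.998 ± 0.25, to 7.18 and 7.56 in DoxOn_day4, against 3.63 and 3.11 in DoxOFF_day2. Tfap2c, given above among the germ cell genes, is also on the trophoblast list and rose by 2.46 ± 0.17. Cdx2 and Ascl2 of that list were kept (0.18 ± 0.10 and -0.34 ± 0.11). Of 10 tested trophoblast genes, 3 were called higher, none lower and 4 were kept (40%). Of the Hox and Cdx genes, Hoxa5 fell by 2.63 ± 0.18 and Hoxb1 rose by 1.01 ± 0.12. On that list 10 of 15 were kept (66.7%, beside 74.2% of all probes).

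Hypoxia targets fell more often than any other list. Adm, the gene of the vessel-widening hormone adrenomedullin, was at 4.66 and 4.50 in DoxOn_day4, against 8.24 and 8.51 in DoxOFF_day2 (-3.80 ± 0.29, limma adjusted p = 0.000292). Pdk1, a kinase that holds pyruvate out of the mitochondrion, was at 7.23 and 7.13 in DoxOn_day4, against 8.99 and 8.92 in DoxOFF_day2 (-1.78 ± 0.10). The glucose transporter Slc2a1 was at 9.21 and 9.08 in DoxOn_day4, against 10.90 and 10.77 in DoxOFF_day2 (-1.70 ± 0.10), and Slc2a3 fell by 1.64 ± 0.20. All were lower on both DoxOn_day4 arrays. Of 19 tested hypoxia targets, 13 were called lower and 1 higher, with a median of -0.99, and 10 to 13 were called lower with 1 array left out. The 1 higher call ended without any 1 array of DoxOn_day4 or DoxOn_day2 or without DoxOFF_day2 replicate 1. Vegfa and Ndrg1, also targets, were kept. Vegfa was at 4.28 and 4.12 in DoxOn_day4 and at 4.04 and 4.36 in DoxOFF_day2, and Ndrg1 differed by -0.01 ± 0.13. Of 18 tested glycolysis genes, 9 were called lower and 1 higher, with a median of -0.32. The kept margin held 13 of 18, 4 of those called lower included, a share (72.2%) near that over all probes, and Eno1 and Pgam1 were among them. The 1 higher call ended without any 1 array of DoxOn_day4 or DoxOn_day2 or without DoxOFF_day2 replicate 1. Pfkp and Pfkl, forms of phosphofructokinase, fell by 1.69 ± 0.10 and 0.80 ± 0.11, and Aldoc, an aldolase, by 0.93 ± 0.09. The means of Adm were 2.21 in DoxOn_day2 and 1.35 in DoxOFF_day4, so DoxOn_day4 was not the lowest group.

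The machinery of growth and respiration was kept. All 25 tested replication and mitosis genes and all 17 oxidative phosphorylation genes were kept, and 11 of 12 ribosomal protein genes. Of all probes, 74.2% were kept. These counts hold for the 2-fold margin. At 1.5-fold, 159 members of all lists were kept, beside 301 at 2-fold. Pcna, the sliding clamp of replication, was at 12.79 and 13.11 in DoxOn_day4 and at 13.14 and 12.93 in DoxOFF_day2, and Atp5b, a subunit of ATP synthase, was at 13.60 on both DoxOn_day4 arrays and at 13.63 and 13.60 in DoxOFF_day2. The groups overlapped for both genes. With 1 array left out, 22 to 25 and 16 to 17 members of these lists were kept. The exception among ribosomal genes was the probe of Rpl10, which fell by 2.58 ± 0.11, to 6.84 and 6.95 in DoxOn_day4, against 9.50 and 9.45 in DoxOFF_day2, a level far under that of Rps18 or Rpl32, whose probes read between 14.67 and 15.12. Rpl10 has related gene copies, and which of them this probe reads was not tested. Of the housekeeping genes, Sdha and Hprt were kept. The 2 probes of Actb disagreed: the brighter one rose by 1.85 ± 0.16 and the other was kept (0.04 ± 0.17).

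DNA methylation, imprinted and stress genes held a few strong changes. Dnmt3a, a de novo DNA methyltransferase, was at 7.67 and 7.72 in DoxOn_day4, against 10.31 and 10.47 in DoxOFF_day2 (-2.69 ± 0.13, limma adjusted p = 5e-05). Dnmt3l, its cofactor, fell by 1.09 ± 0.11, and Tet1, a methylcytosine dioxygenase, by 0.85 ± 0.10, while Dnmt3b (-0.60 ± 0.09), Ezh2 and Eed were kept. Of 14 chromatin methylation genes, 7 were called lower and none higher. Among imprinted genes, Cdkn1c and Phlda2 fell by 2.34 ± 0.16 and 1.67 ± 0.11, and Plagl1 and Peg3 rose by 1.71 ± 0.11 and 1.64 ± 0.14. Ddit3, a factor of the unfolded protein response, fell by 1.92 ± 0.13, Atf3, an immediate stress factor, rose by 1.71 ± 0.19, and Gadd45a, a p53 target, fell by 1.72 ± 0.09. The stress response list as a whole had 11 of 14 genes kept, Hspa5 and Atf4 among them, a share (78.6%) near the 74.2% of all probes. Over all 39 lists, 506 genes were tested, of which 96 were called higher, 100 lower and 301 kept. Among all probes, 8.71% were called higher, 9.27% lower and 74.2% were kept.

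**Figure D5:**
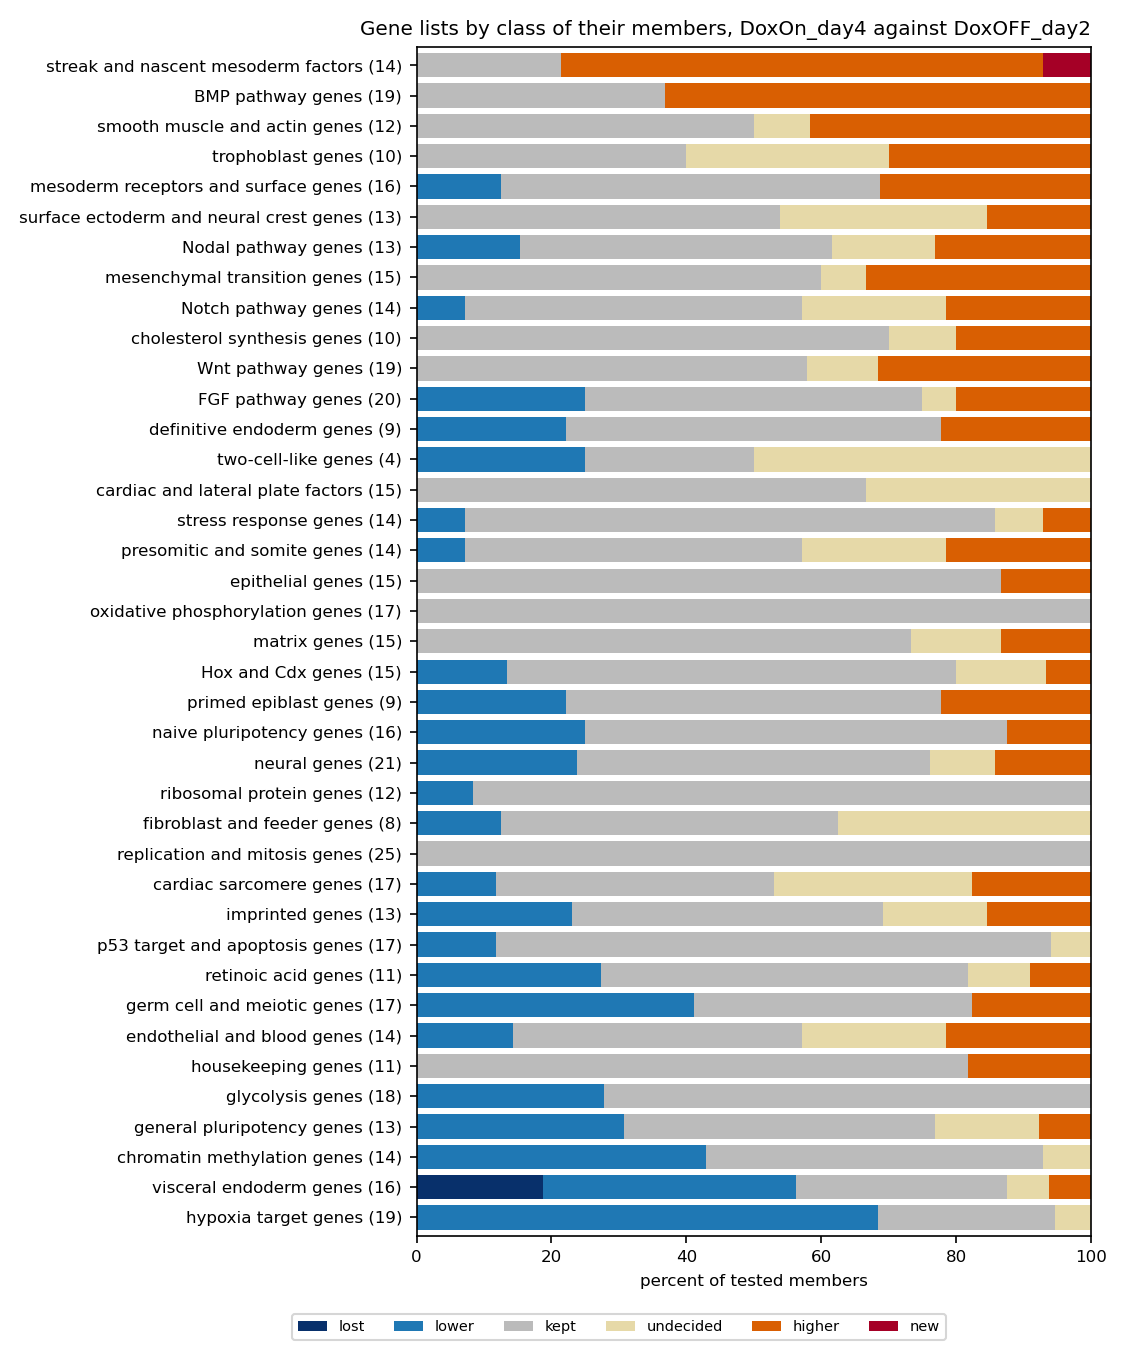
Share of the tested members of each of 39 gene lists that were lost, lower, kept, undecided, higher or new in DoxOn_day4 against DoxOFF_day2, with lists ordered by their median difference and the number of tested members in brackets; called members within the 2-fold margin are shown as kept, and a gene can be in several lists. Streak and BMP genes stand at the top with no lower member, visceral endoderm and hypoxia targets at the bottom, and the replication and oxidative phosphorylation bars are wholly kept.

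The levels in the other groups show where along time and Dox each gene stood. These comparisons share arrays, so their values are set side by side and not combined. T differed by 6.67 ± 0.11 between DoxOn_day4 and DoxOn_day2 and by 6.55 ± 0.11 between DoxOn_day4 and DoxOFF_day4 (limma adjusted p = 4.04e-06 and 4.56e-07), and by 0.16 ± 0.11 between DoxOn_day2 and DoxOFF_day2 and 0.28 ± 0.11 between DoxOFF_day4 and DoxOFF_day2 (adjusted p = 0.454 and 0.0921). Mixl1, Gsc and Ccl20 had the same form, each called in DoxOn_day4 against both other groups and in neither of the remaining comparisons. Mesp1 differed from it in 1 respect, a fall of 0.62 ± 0.14 in DoxOFF_day4 against DoxOFF_day2. Id1 was called in DoxOn_day2 against DoxOFF_day2, by 3.78 ± 0.16, and not in DoxOn_day4 against DoxOn_day2 (-0.26 ± 0.16, limma adjusted p = 0.347). Bmp4, Rhox6 and Tfap2c had their highest level in DoxOn_day2, and DoxOn_day4 lay lower than it by 2.80 ± 0.10, 2.69 ± 0.25 and 2.53 ± 0.17. For Frzb and Cdh11 the difference of DoxOn_day4 from DoxOFF_day4 missed the threshold, at -0.92 ± 0.29 and -0.66 ± 0.28 (limma adjusted p = 0.0511 and 0.134).

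For the genes that fell or were kept, the same groups gave other orders. Ttr and Spink1 were lower in DoxOn_day2 than in DoxOFF_day2 by 4.42 and 4.99 and lower in DoxOFF_day4 than in DoxOFF_day2 by 3.72 and 4.20, so they were high only in the untreated day-2 bodies among the 4 groups. Zscan4c and Hormad1 were not called between DoxOn_day2 and DoxOFF_day2 (-0.20 ± 0.12 and -0.63 ± 0.25, limma adjusted p = 0.37 and 0.176), and were low at day 4 with and without Dox. Utf1 and Dppa5a were higher in DoxOn_day4 than in DoxOFF_day4 by 7.30 ± 0.10 and 6.58 ± 0.10, although both were lower than in DoxOFF_day2. Nanog, Zfp42 and Nr5a2 were higher in DoxOn_day4 than in DoxOFF_day4 by 6.56 ± 0.18, 5.61 ± 0.11 and 2.42 ± 0.10. Zfp42 and Nr5a2 were higher in DoxOn_day2 than in DoxOFF_day2 by 2.51 ± 0.11 and 2.42 ± 0.10. DoxOn_day4 lay lower than DoxOn_day2 by 3.04 ± 0.11 and 2.27 ± 0.10. For both genes the DoxOn_day4 level was thus within 2-fold of that in DoxOFF_day2 and was not that of DoxOn_day2. Of all probes tested, 11.8% were called between DoxOn_day2 and DoxOFF_day2, 19% between DoxOn_day4 and DoxOn_day2, 38.1% between DoxOFF_day4 and DoxOFF_day2 and 29.9% between DoxOn_day4 and DoxOFF_day4.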

How the data were processed

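RNA of 8 embryoid body samples was measured on single-colour arrays, 2 arrays in each of 4 groups. Per the file headers, the deposited scanner values are median spot intensities at one wavelength, combined over 3 scanner gains by fitted lines and not corrected for background. The authors' processed value table holds linear intensities that correlate at 1 with these values on each array, with 0 at the blank mean and a median of 25. No source used here names the scanner software. Here the mean of the blank spots was subtracted, arrays were quantile normalized, values under the floor of 2.06 were set to it, and log2 was taken. A probe was above background when over the blank mean plus 2 SD, and was tested when above it on at least 2 arrays, which left out 1803 probes.

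One mean per group was fitted over all 8 arrays with limma 3.58.1 in R 4.3.3, with 4 residual and 2.70 prior degrees of freedom and Benjamini-Hochberg adjustment over 21670 probes. The brightest probe stood for a gene. Probe names came from the platform annotation, with 3947 symbols updated through RefSeq synonyms. Data simulated for this comparison (21661 probes) held 100 changes of log2 size 2, 100 of size 1 and 21461 unchanged probes. Of these, 97%, 70% and 0.0606% were called, and 91% of unchanged probes were kept. The changes were placed only in probes with a mean log2 level over 4. Kept was set there by the interval alone, without the background rule used on the data. Changes were thus far rarer than the 18% of probes called here. No change was placed in a dimmer probe, so the shares of changes called do not cover dim genes. The share kept was not given separately for dim probes.

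Named genes were Tbx6, T, the 12 largest rises and falls, the 8 new and 8 lost genes with the largest bounds (names of clones or gene models, such as BC053393, were passed over in these top lists), and in each list up to 5 called members with the largest change and 4 kept members with the highest level. Genes named outside this rule are list members used as markers or to complete a count, chosen after their values were seen, as were the motifs. The comparison and lists were chosen with earlier results of these data known. Alternatives changed the background correction, normalization, filter, threshold, margin, value table and arrays in the fit. The number of arrays limits the precision: the replicate error rests on 2 arrays a group. Figures were drawn with matplotlib 3.10.9.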

Additional observations from a re-analysis of the deposited data

How the results depend on the processing

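The counts of called probes kept their direction and stayed within 1.5 times under median scaling, no filter on dim probes, the authors' processed table and the replicate block, which gave 1588 higher and 1730 lower. The labels do not say that replicate numbers pair the samples, and the replicate differences of DoxOn_day4 and DoxOFF_day2 correlated at -0.266. With the 4 arrays alone, 1189 probes were called higher and 1279 lower. With 1 array left out, the counts were 1113 to 1712 higher, 1220 to 1857 lower, 560 to 632 and 676 to 696 for changes of at least 2-fold higher and lower, 22 to 47 new, 33 to 52 lost and 14426 to 15918 kept, and in the gene lists 73 to 93 higher, 73 to 98 lower and 257 to 299 kept. Without background correction, 121 probes were called at least 2-fold higher and 136 lower, with 1 new and 0 lost. Testing only probes present on all 8 arrays left 0 new and 0 lost, by construction. A threshold of 3 SD gave 58 lost, and the negative control spots gave 44 new and 70 lost. A kept margin of 1.5-fold gave 9522 kept probes and 159 kept list members. New and lost probes were not computed for the authors' table.

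With normexp on the local background column there were 0 calls of any kind in limma (0 higher, 0 lower, 0 of at least 2-fold, 0 new, 0 lost, 0 in the lists), and 820 probes had an unadjusted p under 0.05. That column followed the spot itself, with correlations of log values of 0.984 to 0.998. The sign of these log2 differences turned there, none past the threshold: Acta2 -0.012, Myo1f 0.0022, Ttr 0.023, Izumo1r 0.00068, Cep112 -0.0022, Asah2 -0.030, Dll3 -0.054, Dll1 0.030, Myl7 0.020, Cnn1 -0.12, Pecam1 0.015, Gata2 -0.017, Nanog -1.21, Dppa2 0.051, Msx2 -0.0035, Rhox6 -0.061, Lefty1 0.13, Hes1 -0.10, Crabp2 0.18, Rarg 0.013, Hoxb1 -0.049, Aldoc 0.33, Pfkl 0.17, Plagl1 -0.015, Peg3 -0.040 and Actb -0.76.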

Other observations

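Unnamed probes also moved strongly between DoxOn_day4 and DoxOFF_day2. The probe M400010764 was at 8.55 and 8.51 in DoxOn_day4, against 1.67 and 1.04 in DoxOFF_day2, a difference of 7.17 ± 0.20, and the probe M400010766 was at 9.38 and 9.35 in DoxOn_day4, against 1.04 and 3.47 in DoxOFF_day2, a difference of 7.10 ± 0.74. Both lay above T in size of change, and the DoxOFF_day2 arrays of the second probe differed widely. Of the probes without a gene name, 906 were called and 4370 were kept. Their genes were not analysed here.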
